A study of Mus musculus with 27 samples.

Results

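The cytosolic ribosomal protein genes were taken from the gene count table of a mouse T cell RNA-seq series as the protein-coding genes whose symbol was Rpl or Rps followed by a number, together with Rplp0, Rplp1, Rplp2 and Rpsa. Rps6k kinase genes and names ending in -ps were left out. The rule gave 85 genes of the 26802 in the table, or of its 15433 protein-coding genes. By their known roles they were 43 proteins of the large subunit, 31 of the small subunit, 3 of the ribosomal stalk, 7 paralogs of other members and 1 binding protein, Rps19bp1, which the name pattern admits although it is not part of the ribosome. The members lay on 19 chromosomes, and 30 of them held 58 snoRNA genes inside their bounds in the GENCODE vM21 annotation.

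A cytosolic ribosome is built from a small subunit, which reads the mRNA, and a large subunit, which joins the amino acids, each made of rRNA and many different proteins, most of which are needed in equal numbers. The mRNAs of these proteins begin with a 5′ terminal oligopyrimidine (TOP) tract, a cytosine followed by further C and T bases, through which mTORC1, a kinase complex that contains Raptor, controls their translation together with the RNA-binding protein LARP1. T cells that leave rest build many ribosomes before they divide. The libraries measured mRNA abundance, not translation.

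The T cells came from pooled lymph nodes and spleens of C57BL/6 (B6) mice of 3 genotypes. Raptor KO mice were B6-CD4-cre-Rptor fl/fl, Rictor KO mice were B6-CD4-cre;Rictor fl/fl, and WT mice were B6 animals for which no Cre transgene is named. Rictor belongs to mTORC2, the other mTOR complex. The Cd4-cre transgene is active in developing T cells that have yet to choose the CD4 or CD8 lineage, so that both subsets carry the deletion. CD4+ or CD8+ cells were enriched with magnetic beads and then kept for 48 h on plate-bound antibodies to CD3 and CD28, each named at 10 µg/ml (stimulated), or with IL-7 at 5 ng/ml (resting). Cells that bound neither MFG-E8 nor 7-AAD, which mark dead cells, were sorted from every culture. The 9 groups had 3 libraries each: Raptor KO, Rictor KO and WT stimulated CD8 cells, Raptor KO and WT stimulated CD4 cells, and Raptor KO and WT resting cells of each subset. The labels do not say whether libraries came from separate animals, so the p-values measure the spread between these samples, which may be technical.

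The 27 libraries held 8640699 to 16817347 counts, of which 81.1% to 88.4% lay in Rn45s, the 45S pre-rRNA gene, and 24223 to 108246 in the members. Levels are given as CPM, the count of a gene set against the TMM-scaled total of its library outside Rn45s. Summed T cell markers held 466 to 940 CPM in every library. Cd4 and Zbtb7b summed to 195 to 418 CPM in the CD4 libraries, where Cd8a and Cd8b1 summed to 2.23 to 8.22 CPM, and to 1.22 to 16.6 CPM in the CD8 libraries, where Cd8a and Cd8b1 summed to 136 to 726 CPM. B cell markers summed to 17.2 CPM at most and erythroid markers to 34.9 CPM. Myeloid markers summed to 22.7 to 71.7 CPM and NK cell markers to 0.446 to 53.8 CPM, and both are taken up with the Raptor KO differences. Whole-gene counts of the deleted genes checked the labels weakly, since exons outside the deleted part are still counted: Rptor averaged 22.1 ± 4.41 CPM in Raptor KO and 26.3 ± 3.63 CPM in WT stimulated CD4 cells, and Rictor averaged 39.1 ± 1.61 CPM in Rictor KO and 45.0 ± 7.19 CPM in WT stimulated CD8 cells (SD, n = 3 each). Neither gene passed the test in its own knockout, with log2 fold changes of -0.25 for Rptor and -0.20 for Rictor. In bulk RNA, fewer cells of a type and less RNA per cell cannot be told apart.

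The starts of 7 members are shown because they carry the contrasts described below: Rps6, Rps15a and Rps27 of the small subunit and Rpl28 of the large subunit have a pyrimidine tract over the start site, and Rps7, Rps2 and the paralog Rps27l have a short one or none there. Each sequence is the 30 bases around the start recorded by RefSeq on GRCm38.p6, read 5′ to 3′ on the gene's strand, and capitals mark the unbroken run of C and T that covers the start. Rps6 lay at chr4:86857353-86857382 on the minus strand, Rps15a at chr7:118116133-118116162 on the minus strand, Rps27 at chr3:90213634-90213663 on the minus strand and Rpl28 at chr7:4792950-4792979 on the plus strand. Rps7 lay at chr12:28635939-28635968 on the minus strand, Rps2 at chr17:24720048-24720077 on the plus strand and Rps27l, by the first of its entries, at chr9:66946071-66946100 on the plus strand.
Rps6: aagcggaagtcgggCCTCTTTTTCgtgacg
Rps15a: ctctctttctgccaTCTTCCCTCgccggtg
Rps27: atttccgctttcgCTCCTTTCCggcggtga
Rpl28: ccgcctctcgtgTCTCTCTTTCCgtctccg
Rps7: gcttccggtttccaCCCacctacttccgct
Rps2: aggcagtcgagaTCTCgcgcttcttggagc
Rps27l: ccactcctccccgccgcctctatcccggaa

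A recorded start can differ from the one the cells use by several bases or by many more. Entries of the same gene can also differ, as for Rpl34, with runs of 0 and 20 bases. A missing run says only that these letters do not cover the recorded start. RefSeq start regions were matched for 65 of the 85 members. A C at the recorded start with 4 further bases that were each C or T was found in 14 of the 65 (21.5%), against 813 of the 27025 symbols in the RefSeq start table (3.01%). A run of at least 8 such bases over the start was found in 17 members (26.2%), against 4.59% of those symbols. These matches are on the gene's own strand and are a description of the sequences.

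The members were among the most abundant mRNAs of these cells. The 82 that passed the low-count filter had a median level of 134.5 CPM per kb of exon over the 9 groups, against 4.07 CPM per kb for all 9451 protein-coding genes tested, and 79 of them lay above the 90th percentile of those genes (16.3 CPM per kb). The 3 stalk genes had a median of 449 CPM per kb, the small subunit genes 190.5, the large subunit genes 111 and the paralogs 21.0. The annotated exon length enters these values, such as 499 bases for Rplp1 and 6270 bases for Rps15a. Its part in this order was not tested. The members that did not pass were Rpl24, a large subunit gene with 0 to 12 counts in a library, and the paralogs Rpl39l, with 0 to 4, and Rpl3l, with 0 to 3. Rpl10l and Rps4l were not analysed here.

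Across the groups, the median member level was highest in the stimulated knockout cells on the scale without Rn45s, an order of Raptor KO over WT that turned when totals included it (median differences of -0.24 in CD4 and -0.19 in CD8 cells). It was 310.9 CPM in Raptor KO stimulated CD8 cells, 298 CPM in Raptor KO stimulated CD4 cells and 294 CPM in Rictor KO stimulated CD8 cells, against 246.5 CPM in WT stimulated CD8 cells and 242.5 CPM in WT stimulated CD4 cells. The resting groups held 201 CPM in Raptor KO CD4 cells, 199.7 CPM in Raptor KO CD8 cells, 197 CPM in WT CD8 cells and 159.7 CPM in WT CD4 cells. WT resting CD4 cells were the lowest group for 64 of the 82 members, and Raptor KO stimulated CD8 cells were the highest for 43. Within 7 of the 8 groups that had libraries of all 3 library codes, the StP219 library, which is library 3, had the highest member median. In those 8 groups the code goes with the library number, and fits with the code as a block are given beside the results they move. All 3 Rictor KO libraries carry StP219. Their member medians were 8.10, 8.20 and 8.27 on the log2 scale, against 8.08 in the StP219 library of WT stimulated CD8 cells.

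**Figure D1:**
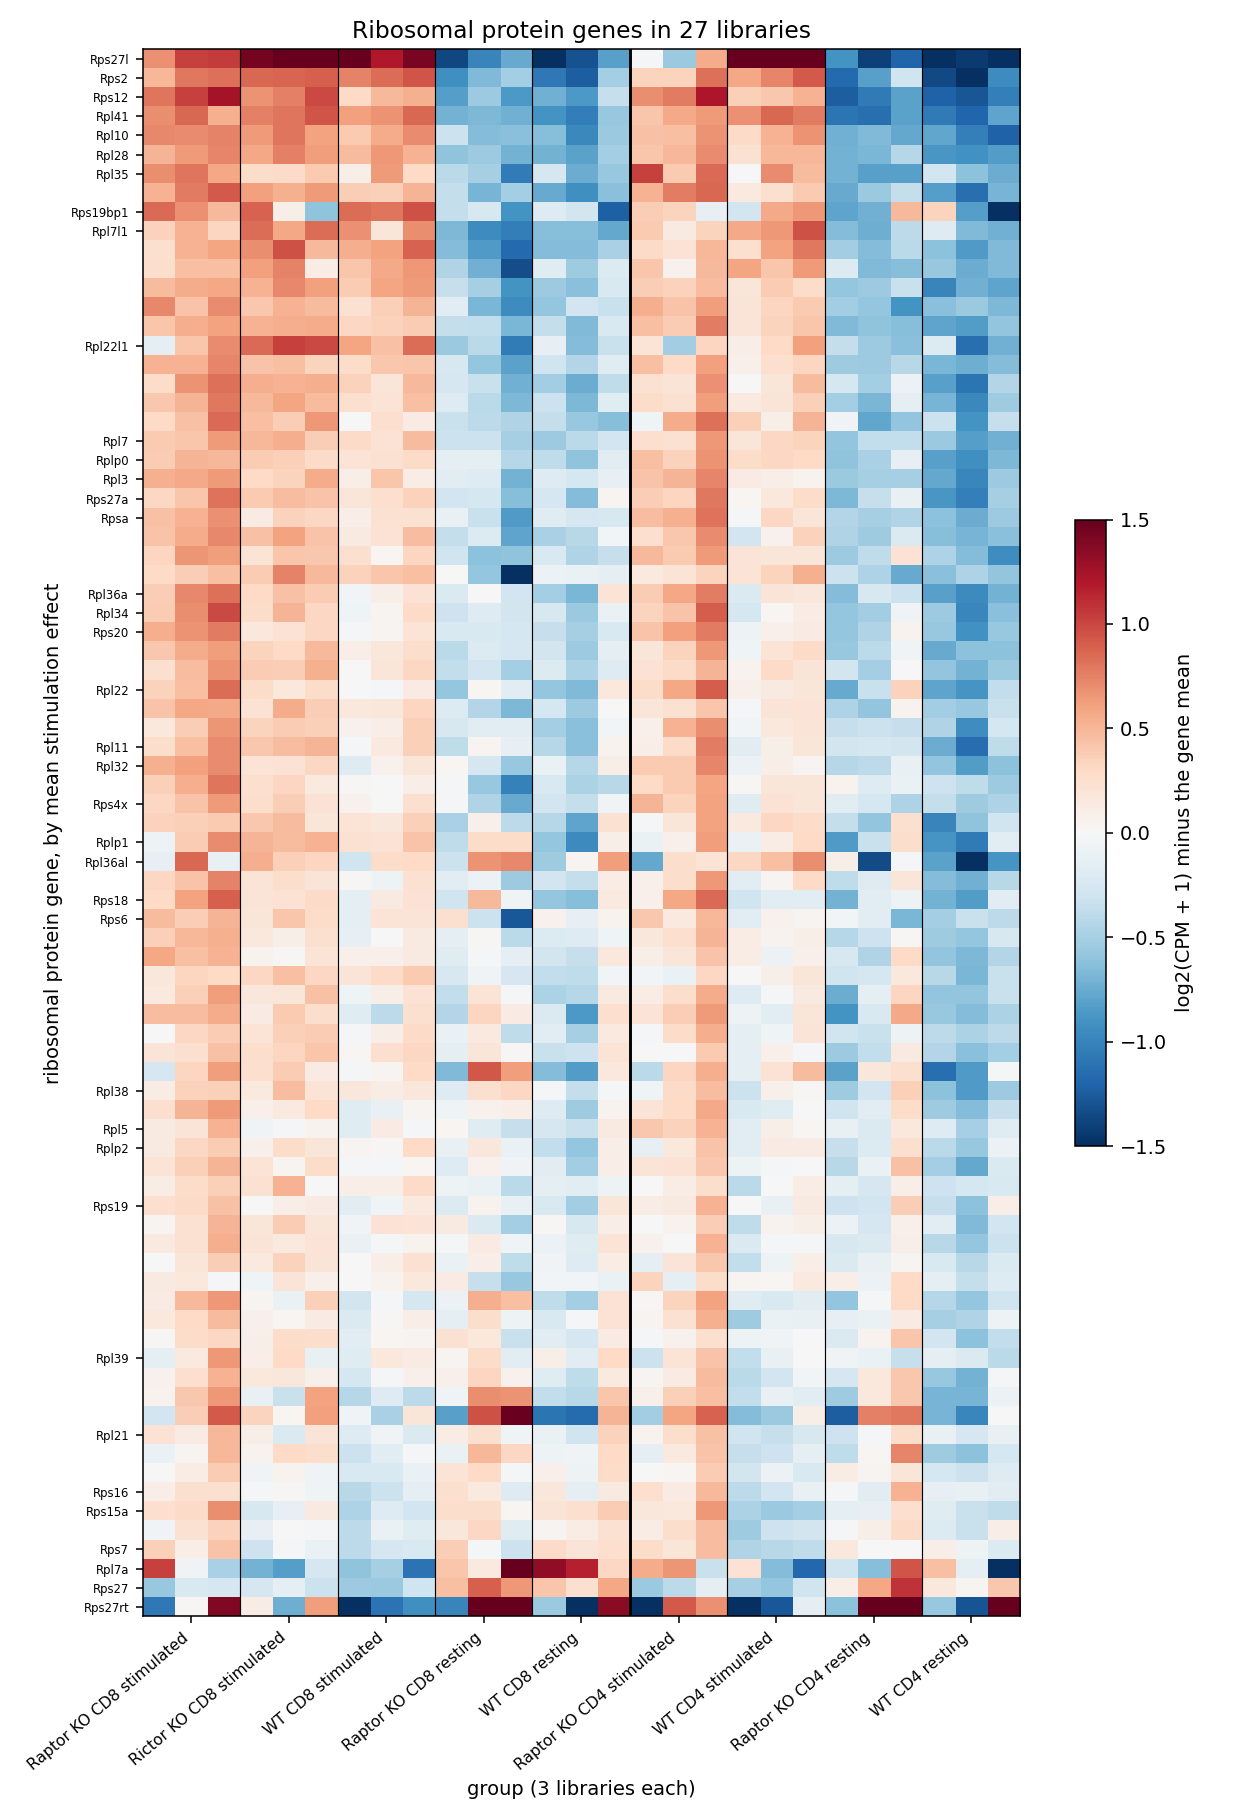
Levels of the 82 tested ribosomal protein genes in the 27 libraries, as log2(CPM + 1) minus the mean of the gene, with genes ordered by their mean stimulation effect and names given for members described in the text. The stimulated libraries lie above the gene mean for most members, while Rps27 runs the other way.

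Many ribosomal protein mRNAs rose with stimulation through CD3 and CD28 in both subsets and both genotypes, and few fell. The 4 stimulation comparisons share no library. In Raptor KO CD4 cells 48 of 82 members rose and 1 fell, with a median log2 fold change of 0.56, and in WT CD4 cells 56 rose and 2 fell, with a median of 0.65. In Raptor KO CD8 cells 52 rose and 1 fell (median 0.64), and in WT CD8 cells 39 rose and 6 fell (median 0.38). A call here is a Benjamini-Hochberg adjusted p under 0.05 from edgeR's quasi-likelihood test over 10493 genes. Of those genes 27.9% rose and 24.1% fell in Raptor KO CD4 cells and 32.4% rose and 32.5% fell in WT CD4 cells. In CD8 cells 29.5% rose and 26% fell in Raptor KO, and 32% rose and 30.8% fell in WT libraries. The median over all genes lay between -0.03 and 0.04. The same 35 members rose in all 4 comparisons, against 20.2% of all genes, and 14 members passed in none of them, against 18.6%. The 39 that rose in WT CD8 cells were all among the 56 that rose in WT CD4 cells (69.6%). When library totals included Rn45s, the median of all genes shifted by -0.12 in Raptor KO CD4 cells, where 12 members rose and 1 fell, and by 0.77 in WT CD8 cells, where 62 rose and 1 fell.

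**Figure D2:**
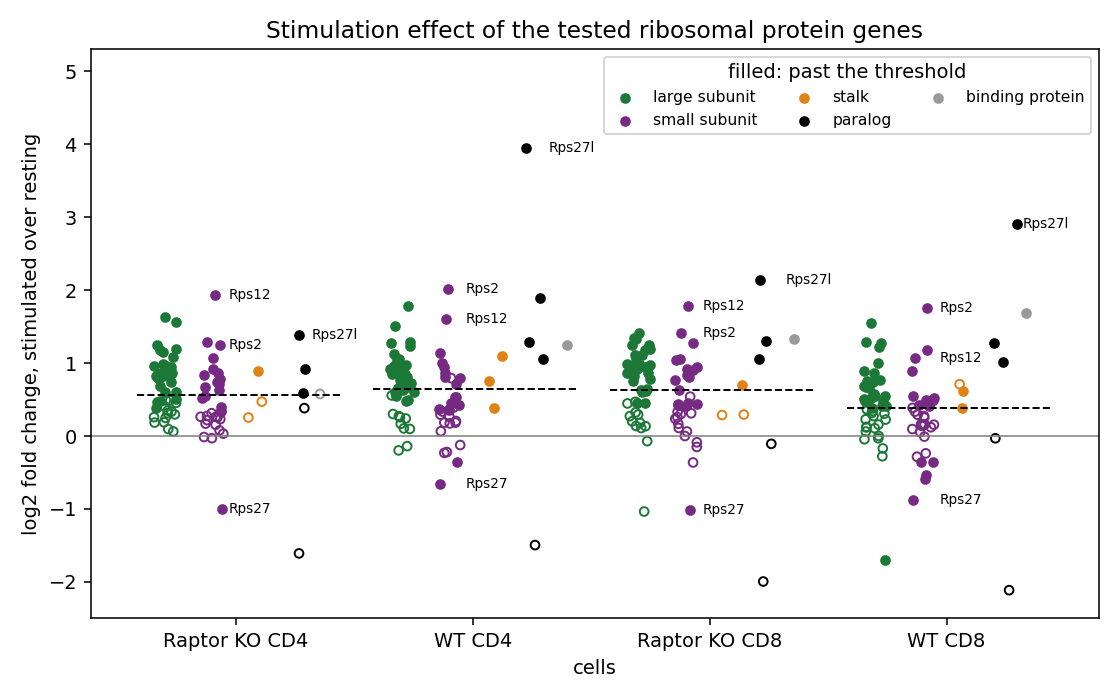
Log2 fold change of each tested member, stimulated over resting, by role, in Raptor KO CD4, WT CD4, Raptor KO CD8 and WT CD8 cells; filled points passed the test and the dashed line is the median. Most points lie above 0, with Rps27l highest in 3 of the 4 panels and Rps27 below 0 in each.

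The large subunit genes had larger median changes than the small subunit genes, given as a description without a test between them. Of 42 large subunit genes, 28 rose in Raptor KO CD4 cells (median log2 fold change 0.71), 32 in WT CD4 cells (0.71), 30 in Raptor KO CD8 cells (0.84) and 24 in WT CD8 cells (0.44). None fell except Rpl7a in WT CD8 cells. Of 31 small subunit genes, 16 rose and 1 fell in Raptor KO CD4 cells (median 0.34), and 16 rose and 2 fell in WT CD4 cells (0.37). In CD8 cells 17 rose and 1 fell in Raptor KO (0.44), and 9 rose and 5 fell in WT libraries (0.16). Of all genes, 27.9% rose in Raptor KO CD4, 32.4% in WT CD4, 29.5% in Raptor KO CD8 and 32% in WT CD8 cells. The 9 of 31 in WT CD8 cells lay below that share.

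Among large subunit genes, Rpl10, whose protein is among the last to join the subunit, had 374, 376 and 438 CPM in Raptor KO stimulated CD4 cells against 167, 173 and 161 CPM in Raptor KO resting CD4 cells. It had 337, 396 and 439 CPM in WT stimulated CD4 cells against 160.0, 134 and 118 CPM in WT resting CD4 cells. The stimulated libraries were the higher ones of each pair. In CD8 cells it had 453, 449 and 463 CPM in Raptor KO stimulated libraries against 219.6, 174 and 178 CPM in resting ones. WT CD8 cells had 362, 405 and 449 CPM in stimulated libraries against 176, 139.6 and 187 CPM in resting ones. All stimulated libraries lay above all resting ones. The log2 fold change was 1.25 ± 0.14 (SE, adjusted p = 7.36e-10) in Raptor KO CD4 cells, 1.51 ± 0.14 (SE, adjusted p = 2.78e-12) in WT CD4 cells, 1.25 ± 0.14 (SE, adjusted p = 5.43e-10) in Raptor KO CD8 cells and 1.27 ± 0.14 (SE, adjusted p = 2.51e-10) in WT CD8 cells. Rpl41, the smallest ribosomal protein, rose by 1.56 in Raptor KO CD4, 1.79 in WT CD4, 1.41 in Raptor KO CD8 and 1.55 in WT CD8 cells on the log2 scale. Rpl28, whose pyrimidine run is printed above, rose by 1.16, 1.29, 1.25 and 1.22 in the same order of groups.

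Rpl35 had 44.4, 28.3 and 39.2 CPM in Raptor KO stimulated CD4 cells against 12.7, 11.8 and 11.7 CPM in Raptor KO resting CD4 cells, a rise of 1.64 ± 0.23 (SE, adjusted p = 1.05e-07) with no overlap. Rpl3, which lies close to the site where peptide bonds form, rose in all 4 comparisons, by 0.41 in WT CD8 cells and by 0.85 to 1.08 in the others; the WT CD8 call was lost without WT stimulated library 2 (adjusted p = 0.0768). Rpl5 and Rpl11 carry the 5S rRNA into the large subunit and, outside the ribosome, bind the p53 regulator Mdm2. Rpl11 rose by 0.69 in Raptor KO CD4, 0.77 in WT CD4, 0.64 in Raptor KO CD8 and 0.48 in WT CD8 cells, where the call was lost without WT resting library 1 or 2 or WT stimulated library 3 (adjusted p up to 0.111). Rpl5 rose by 0.48 ± 0.14 (SE, adjusted p = 0.00486) in Raptor KO CD4 and 0.46 ± 0.14 (SE, adjusted p = 0.00668) in Raptor KO CD8 cells, while its log2 fold changes of 0.27 in WT CD4 cells (adjusted p = 0.092) and 0.11 in WT CD8 cells (adjusted p = 0.522) did not pass. The Rpl5 call in Raptor KO CD8 cells was lost without Raptor KO stimulated library 3 (adjusted p = 0.0723). For Rpl5 the difference of the effects, Raptor KO minus WT, did not pass edgeR's test. It was 0.21 in CD4 (adjusted p = 0.621) and 0.35 in CD8 cells (adjusted p = 0.422). Rpl38, known in mouse embryos for its part in translating Hox mRNAs, passed in WT CD4 cells, at 0.60 ± 0.17 (SE, adjusted p = 0.00266).

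The 3 stalk genes encode the flexible arm of the large subunit that recruits elongation factors. Rplp0, its base, had 972, 907 and 1136 CPM in Raptor KO stimulated CD4 cells against 469, 509 and 654 CPM in Raptor KO resting CD4 cells. It had 859.5, 885 and 879 CPM in WT stimulated CD4 cells against 403, 374 and 445 CPM in WT resting CD4 cells. The groups did not overlap in either pair, and the rise was 0.89 ± 0.15 (SE, adjusted p = 2.96e-06) in Raptor KO CD4, 1.10 ± 0.15 (SE, adjusted p = 2.65e-08) in WT CD4, 0.70 ± 0.15 (SE, adjusted p = 0.000113) in Raptor KO CD8 and 0.61 ± 0.15 (SE, adjusted p = 0.000421) in WT CD8 cells. Rplp1 passed in WT CD4 cells, at 0.76 ± 0.31 (SE, adjusted p = 0.04), and Rplp2 passed in WT CD4 cells, at 0.38 ± 0.17 (SE, adjusted p = 0.0461), and WT CD8 cells, at 0.38 ± 0.17 (SE, adjusted p = 0.0445). The Rplp1 call was lost without WT resting library 1 or 2 or WT stimulated library 2 or 3 (adjusted p up to 0.144). The Rplp2 calls were lost in WT CD4 cells without WT resting library 1 or 2 or WT stimulated library 2 or 3 (adjusted p up to 0.188). In WT CD8 cells the call was lost without WT resting library 1 or 2 or WT stimulated library 3 (adjusted p up to 0.229).

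Among small subunit genes, Rps12 and Rps2 had large rises. Rps12 had 807, 855 and 1149 CPM in Raptor KO stimulated CD4 cells against 209.6, 238 and 285 CPM in Raptor KO resting CD4 cells. It had 636, 658 and 715 CPM in WT stimulated CD4 cells against 214, 203 and 243 CPM in WT resting CD4 cells. In these CD4 libraries the lowest stimulated value was 636 CPM and the highest resting value 285 CPM. In CD8 cells Rps12 had 871, 1009.9 and 1178 CPM in Raptor KO stimulated libraries against 279, 339.9 and 274 CPM in resting ones. WT CD8 cells had 613, 696 and 718 CPM in stimulated libraries against 302, 273 and 390.4 CPM in resting ones. The stimulated libraries were higher with no overlap, at 1.94 ± 0.16 (SE, adjusted p = 3.86e-13) in Raptor KO CD4, 1.61 ± 0.16 (SE, adjusted p = 2.19e-11) in WT CD4, 1.78 ± 0.16 (SE, adjusted p = 2.93e-12) in Raptor KO CD8 and 1.07 ± 0.16 (SE, adjusted p = 2.58e-07) in WT CD8 cells.

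Rps2, whose protein lies where mRNA enters the subunit, had 398, 400.5 and 563 CPM in Raptor KO stimulated CD4 cells against 141, 179 and 256 CPM in Raptor KO resting CD4 cells. In WT CD4 cells it had 472, 525 and 600.5 CPM in stimulated libraries against 123, 109 and 164 CPM in resting ones. Again no stimulated library overlapped a resting one, and the log2 fold change was 1.24 ± 0.19 (SE, adjusted p = 1.62e-06) in Raptor KO CD4, 2.01 ± 0.20 (SE, adjusted p = 9e-11) in WT CD4, 1.41 ± 0.19 (SE, adjusted p = 1.74e-07) in Raptor KO CD8 and 1.75 ± 0.19 (SE, adjusted p = 1.81e-09) in WT CD8 cells. Rpsa, also known as the laminin receptor, rose by 1.07 in Raptor KO CD4, 0.79 in WT CD4, 0.95 in Raptor KO CD8 and 0.41 in WT CD8 cells. Rps27a, made as a fusion with ubiquitin, rose by 0.87, 0.95, 0.92 and 0.52 in the same order; its WT CD8 call was lost without WT resting library 2 (adjusted p = 0.0706).

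Rps6, whose protein is the best known substrate of S6 kinase downstream of mTORC1, passed in the Raptor KO cells, where it rose by 0.63 ± 0.22 (SE, adjusted p = 0.0175) in CD4 and 0.77 ± 0.22 (SE, adjusted p = 0.00406) in CD8 cells. In WT cells its log2 fold changes of 0.39 in CD4 (adjusted p = 0.118) and 0.096 in CD8 cells (adjusted p = 0.714) did not pass. The difference of these effects, Raptor KO minus WT, did not pass edgeR's test either. It was 0.24 in CD4 (adjusted p = 0.714) and 0.68 in CD8 cells (adjusted p = 0.269). The CD4 call in Raptor KO cells was lost without Raptor KO resting library 3 or Raptor KO stimulated library 3 (adjusted p up to 0.0916). Rps19, mutated in Diamond-Blackfan anaemia in humans, passed in Raptor KO CD8 cells, at 0.42 ± 0.18 (SE, adjusted p = 0.0404), a call lost without Raptor KO resting library 1 or 3 or Raptor KO stimulated library 2 or 3 (adjusted p up to 0.121). Rps4x rose by 0.78 in Raptor KO CD4, 0.53 in WT CD4 and 0.84 in Raptor KO CD8 cells, and its 0.33 in WT CD8 cells did not pass.

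Rps27 fell in all 4 stimulation comparisons while its paralog Rps27l rose. Rps27 encodes a zinc-finger protein of the small subunit, and Rps27l, known in mouse and human cells as a p53 target, encodes a near-identical protein that can take its place. Rps27 had 168, 189 and 224 CPM in Raptor KO stimulated CD4 cells against 265, 372 and 527 CPM in Raptor KO resting CD4 cells. It had 176, 166 and 202 CPM in WT stimulated CD4 cells against 276, 255 and 328 CPM in WT resting CD4 cells. In both CD4 pairs the resting libraries were the higher ones. In CD8 cells it had 167, 212 and 208 CPM in Raptor KO stimulated libraries against 339, 464 and 389 CPM in resting ones. WT CD8 cells had 169.9, 169 and 202 CPM in stimulated libraries against 329.8, 294 and 371 CPM in resting ones. The resting libraries were the higher ones in each pair, with no overlap. The log2 fold change was -1.0 ± 0.17 (SE, adjusted p = 4.29e-06) in Raptor KO CD4, -0.66 ± 0.17 (SE, adjusted p = 0.000793) in WT CD4, -1.02 ± 0.17 (SE, adjusted p = 2.86e-06) in Raptor KO CD8 and -0.88 ± 0.17 (SE, adjusted p = 2.17e-05) in WT CD8 cells. With totals that include Rn45s it kept its sign but passed in Raptor KO CD4 cells, at -1.04, and not in WT CD4 (-0.37), Raptor KO CD8 (-0.69) or WT CD8 cells (-0.10).

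Rps27l had 15.4, 10.3 and 23.6 CPM in Raptor KO stimulated CD4 cells against 8.01, 5.35 and 6.25 CPM in Raptor KO resting CD4 cells. It had 48.7, 60.6 and 52.8 CPM in WT stimulated CD4 cells against 3.48, 5.16 and 2.05 CPM in WT resting CD4 cells. The WT stimulated libraries were the highest of these 4 groups. In CD8 cells it had 25.9, 32.9 and 33.7 CPM in Raptor KO stimulated libraries against 5.49, 7.43 and 8.91 CPM in resting ones. WT CD8 cells had 50.8, 37.5 and 43.8 CPM in stimulated libraries against 2.84, 5.75 and 8.54 CPM in resting ones. All stimulated libraries were higher. The log2 fold change was 1.38 ± 0.31 (SE, adjusted p = 0.000251) in Raptor KO CD4, 3.95 ± 0.29 (SE, adjusted p = 2.6e-15) in WT CD4, 2.13 ± 0.28 (SE, adjusted p = 2.83e-08) in Raptor KO CD8 and 2.91 ± 0.28 (SE, adjusted p = 4.46e-12) in WT CD8 cells, and each call was kept when any 1 library was left out. The share of Rps27l in the summed Rps27l and Rps27 level per kb was 9.62 ± 2.76% in Raptor KO stimulated CD4 cells and 27.7 ± 3.64% in WT stimulated CD4 cells (SD, n = 3 each). It was 16.8 ± 0.332% in Raptor KO, 22.1 ± 1.08% in Rictor KO and 23.8 ± 3.32% in WT stimulated CD8 cells, and 1.63% to 2.34% on average in the resting groups. Rps27rt, an intronless copy of Rps27 on chromosome 9, passed in no comparison, and how reads shared by such copies were assigned is not given in the sources used here.

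**Figure D3:**
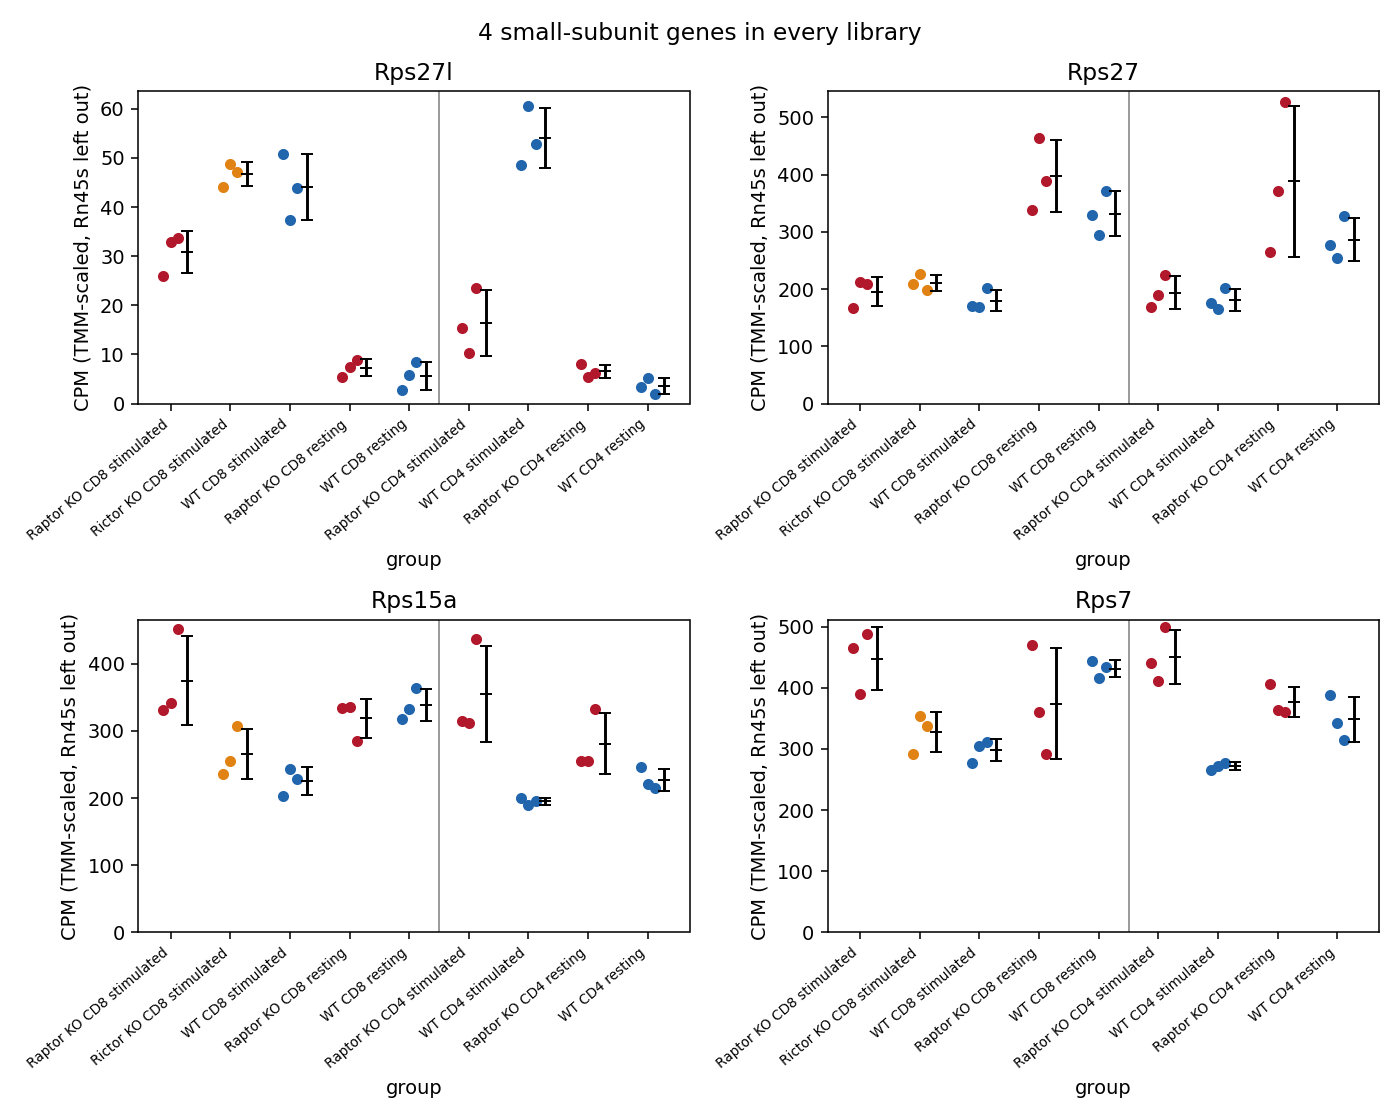
CPM of Rps27l, Rps27, Rps15a and Rps7 in every library of the 9 groups (points), with the mean and SD of each group. On average Rps27l is highest in WT stimulated CD4 cells and Rps27 in the resting groups, while Rps15a and Rps7 are higher in Raptor KO than in WT stimulated libraries without overlap.

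Other paralogs rose with stimulation as well. Rpl22l1 replaces Rpl22 in part of the ribosomes, and in mice both proteins act in T cell development. Rpl22l1 rose by 0.59 ± 0.23 (SE, adjusted p = 0.031) in Raptor KO CD4, 1.05 ± 0.22 (SE, adjusted p = 9.05e-05) in WT CD4, 1.06 ± 0.23 (SE, adjusted p = 0.000179) in Raptor KO CD8 and 1.01 ± 0.22 (SE, adjusted p = 0.000121) in WT CD8 cells, and the first of these calls was lost without Raptor KO resting library 2 or 3 or Raptor KO stimulated library 1 or 3 (adjusted p up to 0.179). Rpl22 itself rose by 0.80 in Raptor KO CD4, 0.80 in WT CD4 and 0.79 in Raptor KO CD8 cells, and its 0.34 in WT CD8 cells did not pass. Rpl7l1, a relative of Rpl7, rose by 0.91 in Raptor KO CD4, 1.29 in WT CD4, 1.30 in Raptor KO CD8 and 1.27 in WT CD8 cells. Rpl7 rose by 0.83, 0.98, 0.87 and 0.74 in the same order.

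Rpl36a rose by 0.98 in Raptor KO CD4, 0.89 in WT CD4 and 0.82 in Raptor KO CD8 cells, and its 0.37 in WT CD8 cells did not pass. Its paralog Rpl36al, at 7.14, 8.02 and 9.63 CPM in WT stimulated CD4 cells and 2.78, 1.29 and 2.57 CPM in WT resting CD4 cells, passed in that comparison, at 1.89 ± 0.49 (SE, adjusted p = 0.000903), and in no other. Rpl39, the partner of the untested Rpl39l, passed in none, with log2 fold changes between -0.044 and 0.30. Rps19bp1, at about 0.514 to 9.05 CPM, rose by 1.25 in WT CD4, 1.33 in Raptor KO CD8 and 1.69 in WT CD8 cells. These calls were lost in WT CD4 cells without WT resting library 2 or 3 or WT stimulated library 2 or 3 (adjusted p up to 0.287). They were lost in Raptor KO CD8 cells without Raptor KO resting library 1, 2 or 3 or Raptor KO stimulated library 1 or 2 (adjusted p up to 0.094) and in WT CD8 cells without WT resting library 3 (adjusted p = 0.0517). Fau, a ribosomal protein made as a fusion that the name pattern leaves out, passed in no comparison.

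Stimulated Raptor KO cells had higher, not lower, levels of many ribosomal protein mRNAs than stimulated WT cells relative to the other RNA outside Rn45s, a direction that turned when totals included Rn45s. The shift was not limited to stimulated cells, since the member median of Raptor KO over WT was 0.32 in resting CD4 cells, where no member passed. In CD4 cells 17 of 82 members were higher and 2 lower in Raptor KO than in WT stimulated libraries, against 8.82% and 8.56% of all genes tested, with a member median of 0.28 on the log2 scale. In CD8 cells 12 were higher and 0 lower, against 6.3% and 5.42% of all genes, with a median of 0.32. Raptor KO libraries lay above WT libraries with no overlap for 33 members in CD4 and 38 in CD8 cells, against 17.1% and 15.5% of all genes. With totals that include Rn45s the medians were -0.24 for CD4 and -0.19 for CD8 cells, and the medians of all genes shifted by -0.50 and -0.52. On that scale 1 member, Rps27l, passed in CD4 cells and 0 in CD8 cells. The members stood 0.22 and 0.30 above all genes there, against 0.24 and 0.28 without Rn45s. The counts also rested on single libraries, since 5 members passed in CD4 cells without Raptor KO library 3 and 8 without WT library 1, and 4 and 3 passed in CD8 cells without the same libraries of that subset. Without a low-count filter 8 passed in CD4 and 7 in CD8 cells. With the library code as a block 25 passed in CD4 and 23 in CD8 cells. Shares of all genes are given for the main fit only. Here and below, counts under a block or another alternative fit therefore cannot be read as a result about the members.

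Markers of other cells moved with this difference in part. The 8 myeloid markers summed to 45.0 to 53.8 CPM in Raptor KO and 22.7 to 29.0 CPM in WT stimulated CD4 cells, and to 63.6 to 71.7 CPM in Raptor KO and 46.5 to 60.2 CPM in WT stimulated CD8 cells. Neither pair overlapped. In Raptor KO CD4 libraries 5 of the 8 had counts, with Fcer1g, Itgam and Tyrobp at 0, and in WT CD4 libraries 5 of the 8, with Fcer1g, Itgam and Lyz2 at 0. Ctss, a lysosomal protease gene, made up most of the CD4 difference, at 31.3 to 39.2 CPM in Raptor KO and 11.7 to 17.3 CPM in WT libraries. The 4 NK cell markers summed to 25.9 to 53.8 CPM in Raptor KO and 13.8 to 22.1 CPM in WT stimulated CD8 cells, without overlap. Nearly all of that was Eomes, a transcription factor gene that CD8 T cells also use, at 23.9 to 53.8 CPM in Raptor KO and 13.8 to 21.5 CPM in WT libraries, and Ncr1 was at 0 in both. The part of these markers in the members' difference was not tested.

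Among protein-coding counts alone, the members took 7.21, 7.56 and 8.38% in Raptor KO and 5.84, 6.13 and 6.35% in WT stimulated CD4 libraries. In stimulated CD8 cells they took 7.63, 7.47 and 8.20% in Raptor KO, 6.73, 7.13 and 6.86% in Rictor KO and 6.02, 6.26 and 6.66% in WT libraries. Raptor KO and WT libraries did not overlap in either subset. In resting cells the share was 5.11, 5.19 and 7.16% in Raptor KO and 4.93, 4.28 and 4.47% in WT CD4 libraries. Resting CD8 cells had 6.21, 6.59 and 7.93% in Raptor KO and 6.38, 5.84 and 6.42% in WT libraries. By this share stimulated and resting libraries did not overlap in CD4 cells of either genotype, but they overlapped in Raptor KO CD8 and in WT CD8 cells. Without Rpl7a the shares were 6.40, 6.69 and 7.97% in Raptor KO and 5.20, 5.78 and 6.11% in WT stimulated CD4 libraries. They were 6.54, 6.97 and 7.84% in Raptor KO and 5.65, 5.88 and 6.41% in WT stimulated CD8 libraries, again with no overlap. WT resting CD8 libraries had 4.89, 4.49 and 5.70% without Rpl7a and still overlapped the WT stimulated ones. Counts in snoRNA genes took 15.7% to 25.8% of the counts outside Rn45s in Raptor KO and 11.0% to 23.1% in WT stimulated CD4 libraries. They took 16.7% to 28.9% in Raptor KO and 11.7% to 16.2% in WT stimulated CD8 libraries, and their part in the result was not tested. The 30 members with snoRNA genes inside had a median difference of 0.30 for CD4 and 0.35 for CD8 cells, while the other 52 had 0.25 and 0.27.

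**Figure D4:**
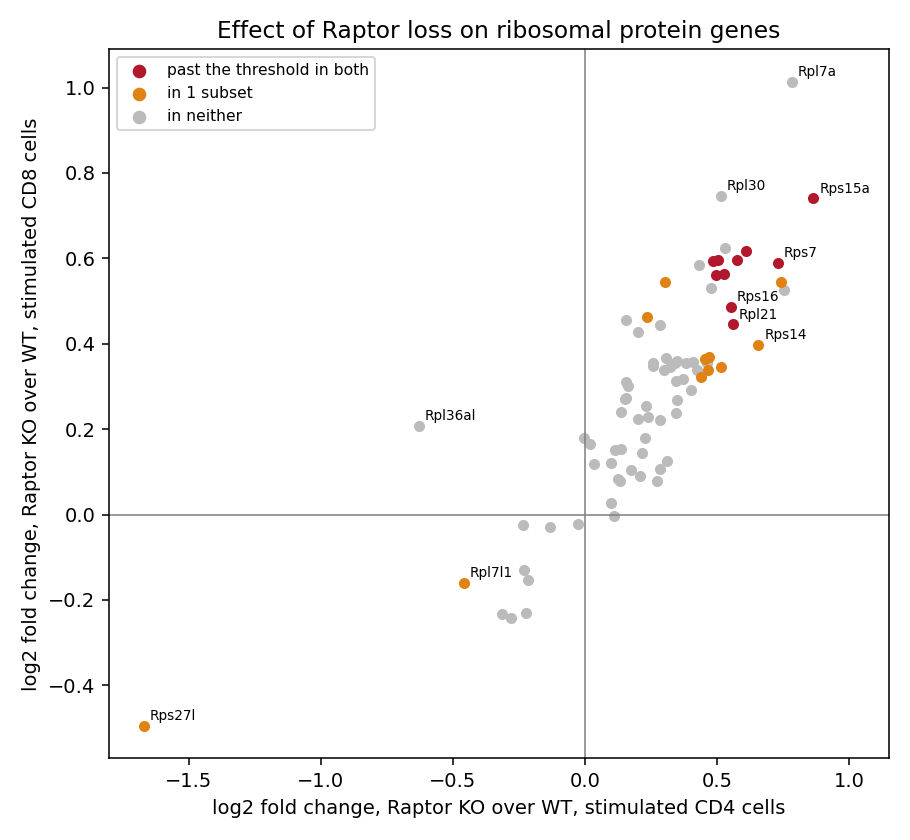
Log2 fold change of each tested member in Raptor KO over WT stimulated cells, with CD4 cells on the horizontal and CD8 cells on the vertical axis; Rps27rt is not plotted. Most members lie above 0 on both axes on the scale without Rn45s, with medians of 0.28 in CD4 and 0.32 in CD8 cells that turn to -0.24 and -0.19 when totals include Rn45s, and Rps27l lies far to the left.

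The members higher in both subsets of Raptor KO cells, on the scale without Rn45s, numbered 10, among them Rpl21, Rpl32, Rpl34, Rpl36a, Rps7, Rps12, Rps15a, Rps16 and Rps20, against 3.04% of all genes. The 10 are 58.8% of those called in CD4 and 83.3% of those called in CD8 cells. The CD4 and CD8 comparisons use separate libraries, with the same 3 library codes. By role, 10 of 31 small subunit and 7 of 42 large subunit genes were higher in CD4 cells, and 7 and 5 in CD8 cells. Of all genes, 8.82% were higher in CD4 and 6.3% in CD8 cells. None of the 3 stalk genes and none of the 5 tested paralogs was higher in either subset, and sets this small say little at those shares.

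Rps15a, a small subunit gene, had the largest difference among the higher members in both subsets. It had 314, 312 and 438 CPM in Raptor KO and 200.5, 189.8 and 195 CPM in WT stimulated CD4 cells. In stimulated CD8 cells it had 331, 342 and 452 CPM in Raptor KO, 235, 255 and 307 CPM in Rictor KO and 203, 244 and 229 CPM in WT libraries. All Raptor KO libraries lay above all WT libraries, and the log2 fold change was 0.86 ± 0.15 (SE, adjusted p = 4.53e-05) in CD4 and 0.74 ± 0.15 (SE, adjusted p = 0.000439) in CD8 cells. Both calls were kept when any 1 library was left out.

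Rps7, whose protein also binds Mdm2, had 441, 412 and 499.7 CPM in Raptor KO and 266, 273 and 278 CPM in WT stimulated CD4 cells. In stimulated CD8 cells it had 465, 390.5 and 489 CPM in Raptor KO, 292, 355 and 338 CPM in Rictor KO and 277, 306 and 311 CPM in WT libraries. Raptor KO and WT libraries did not overlap, and the log2 fold change was 0.73 ± 0.14 (SE, adjusted p = 0.000262) in CD4 and 0.59 ± 0.14 (SE, adjusted p = 0.00361) in CD8 cells. Rps20 was higher by 0.60 ± 0.15 (SE, adjusted p = 0.00527) in CD8 cells, with 782, 858 and 918 CPM in Raptor KO and 525, 552 and 616 CPM in WT libraries, and by 0.57 in CD4 cells. Rpl34 was higher by 0.62 ± 0.16 (SE, adjusted p = 0.01) in CD8 cells, a call lost without WT library 1 (0.54, adjusted p = 0.0708) or Raptor KO library 3 (0.45, adjusted p = 0.121).

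Rps18 was higher by 0.74 ± 0.24 (SE, adjusted p = 0.0393) in CD4 cells, with 216, 307 and 371 CPM in Raptor KO and 167, 183 and 184 CPM in WT libraries. That call was lost without WT stimulated library 1, 2 or 3 or Raptor KO stimulated library 2 or 3 (adjusted p up to 0.173). Of the members named for their roles, Rpsa (0.45), Rpl3 (0.47), Rpl5 (0.44) and Rpl36a (0.53) were also higher in CD4 cells and Rpl36a (0.56) in CD8 cells. The CD4 calls were lost for Rpsa without WT stimulated library 1 or 3 or Raptor KO stimulated library 2 or 3 (adjusted p up to 0.178), for Rpl3 without WT stimulated library 2 or 3 or Raptor KO stimulated library 3 (adjusted p up to 0.106), and for Rpl5 without WT stimulated library 1 or 3 or Raptor KO stimulated library 1 or 3 (adjusted p up to 0.142). The CD4 call of Rpl36a was lost without WT stimulated library 1 or Raptor KO stimulated library 2 or 3 (adjusted p up to 0.153), and its CD8 call without WT stimulated library 1 or 2 or Raptor KO stimulated library 2 or 3 (adjusted p up to 0.122). With totals that include Rn45s the 4 CD4 values were -0.052, -0.0096, -0.076 and -0.0091. Rps6 was at 0.38 in CD4 (adjusted p = 0.239) and 0.35 in CD8 cells (adjusted p = 0.318), and did not pass.

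The 2 members lower in Raptor KO stimulated CD4 cells were both paralogs, Rps27l and Rpl7l1. Rps27l, by the values above, differed by -1.67 ± 0.21 (SE, adjusted p = 2.71e-07), with no overlap and with the call kept when any 1 library was left out. Rpl7l1 had 54.7, 45.5 and 52.4 CPM in Raptor KO and 61.6, 65.5 and 81.2 CPM in WT stimulated CD4 cells, a difference of -0.46 ± 0.16 (SE, adjusted p = 0.0353) that was lost without WT stimulated library 3 or Raptor KO stimulated library 1, 2 or 3 (adjusted p up to 0.25). In CD8 cells Rps27l had 25.9, 32.9 and 33.7 CPM in Raptor KO, 44.1, 48.8 and 47.2 CPM in Rictor KO and 50.8, 37.5 and 43.8 CPM in WT stimulated libraries. Raptor KO and WT did not overlap there either, but the difference of -0.50 ± 0.20 (SE, adjusted p = 0.0939) did not pass.

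Whether stimulation acted differently in Raptor KO cells than in WT cells was tested as an interaction. In CD4 cells 1 member passed, against 3.57% of all genes higher and 2.25% lower: the effect on Rps27l, Raptor KO minus WT, was -2.56 ± 0.48 (SE, adjusted p = 0.000735). In CD8 cells 2 members passed, both higher, against 1.7% of all genes: Rps15a at 0.83 ± 0.21 (SE, adjusted p = 0.0164) and Rps7 at 0.79 ± 0.20 (SE, adjusted p = 0.0167). Behind these 2 differences, Rps15a had 331, 342 and 452 CPM in Raptor KO stimulated and 335, 336 and 285 CPM in Raptor KO resting CD8 cells, and 203, 244 and 229 CPM in WT stimulated and 318, 333 and 365 CPM in WT resting CD8 cells. The effect of stimulation on Rps15a was 0.24 ± 0.15 (SE, adjusted p = 0.167) in Raptor KO cells and -0.59 ± 0.15 (SE, adjusted p = 0.000592) in WT cells, where it turned to 0.17 with totals that include Rn45s. For Rps7 the effects were 0.26 ± 0.14 (SE, adjusted p = 0.115) in Raptor KO and -0.53 ± 0.14 (SE, adjusted p = 0.00113) in WT CD8 cells, where it turned to 0.24 with those totals. The Rps15a interaction was lost without WT stimulated library 1 (adjusted p = 0.0624) or Raptor KO stimulated library 3 (adjusted p = 0.0953), and the Rps7 interaction without the same libraries or Raptor KO resting library 3 (adjusted p up to 0.0665). In CD4 cells the interaction of Rps15a was 0.56 ± 0.21 (SE, adjusted p = 0.101) and that of Rps7 0.62 ± 0.20 (SE, adjusted p = 0.055), and neither passed. Without a low-count filter, or with the compared groups alone, 0 members passed in the CD8 interaction, and 0 passed with totals that include Rn45s. With the library code as a block 3 members passed in CD4 and 4 in CD8 cells.

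In resting cells no member passed between Raptor KO and WT by edgeR's quasi-likelihood test or by DESeq2, in CD4 cells (0 of 82, against 0.143% of all genes) or CD8 cells (0 of 82, against 1.12%). The member median was 0.32 in CD4 cells, where 31 members had an unadjusted p under 0.05 (7.78% of all genes had), and 0.03 in CD8 cells, where 4 had (9.86% of all genes). With the library code as a block 2 members passed in CD4 and 1 in CD8 cells. Rictor deletion in stimulated CD8 cells gave a median of 0.17 over WT, with 0 members passing by either tool (0.162% of all genes by edgeR) and 2 at an unadjusted p under 0.05 (6.03% of all genes). All 3 Rictor KO libraries carry the code StP219, which 1 of the 3 WT libraries has. With the code as a block, estimated from the other groups as well, the median was 0.050 and 0 members passed.

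Between the subsets, 4 members were higher in WT resting CD8 than in WT resting CD4 cells, against 1.59% of all genes, with a member median of 0.32. These were Rps15a at 0.58 ± 0.15 (SE, adjusted p = 0.0158), Rpl3 at 0.56 ± 0.14 (SE, adjusted p = 0.016), Rps12 at 0.55 ± 0.16 (SE, adjusted p = 0.0446) and Rpl32 at 0.55 ± 0.15 (SE, adjusted p = 0.0262). Rpl3 had 392, 374 and 414 CPM in CD8 and 264, 227 and 307 CPM in CD4 resting cells. Rps15a had 318, 333 and 365 CPM in CD8 and 246, 221 and 215 CPM in CD4 resting cells, with no overlap in either gene. The Rps15a call was lost without CD4 resting library 2 or 3 or CD8 resting library 3 (adjusted p up to 0.0875), and the Rpl3 call without CD4 resting library 1 or 2 or CD8 resting library 1 or 3 (adjusted p up to 0.153). The Rps12 call was lost without CD4 resting library 1, 2 or 3 or CD8 resting library 1 or 3 (adjusted p up to 0.333). The count fell to 0 without WT CD4 resting library 2 or WT CD8 resting library 3 and ranged up to 6 without other libraries. With the compared groups alone 8 passed, with the library code as a block 10 passed, and with totals that include Rn45s the median was -0.091 and 0 passed. In stimulated WT cells the median of CD8 over CD4 was 0.06, and no member passed by edgeR (0 of 82, against 5.18% of all genes, with 0 at an unadjusted p under 0.05, against 15.7%) or by DESeq2.

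Rpl7a is described apart because of its level and its spread. It had the highest level, 1605 CPM per kb on average, and held 4.03% to 41.3% of all member counts in a library. Its CPM was 3424, 3678 and 1853 in Raptor KO and 2696, 1488 and 1025 in WT stimulated CD4 cells. In stimulated CD8 cells it was 4731, 2244 and 1657 in Raptor KO, 1422, 1309 and 1952 in Rictor KO and 1538, 1651 and 1085 in WT libraries. In resting cells it was 1898, 1494 and 4465 in Raptor KO and 3194, 2097 and 677 in WT CD4 cells, and 3118, 2570.4 and 11990.1 in Raptor KO and 5841, 5216 and 2883 in WT CD8 cells. Library 3 of Raptor KO resting CD8 cells was the highest of the 27 and library 3 of WT resting CD4 cells the lowest, so the spread within groups was wide. Rpl7a has 3 snoRNA genes inside its bounds (chr2:26910764-26913318, GRCm38, plus strand). Its CPM followed the summed CPM of all snoRNA genes across the 27 libraries, with Spearman's rho of 0.92, the highest of the 82 members; the next was Rps27 at 0.54. The points share the scaling of each library, and the correlation is a description. Its fall of -1.71 ± 0.64 (SE, adjusted p = 0.0274) in WT CD8 cells was lost without WT resting library 1 or 2 or WT stimulated library 1, 2 or 3 (adjusted p up to 0.0925). How much of its count comes from reads of the small RNAs was not tested.

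**Figure D5:**
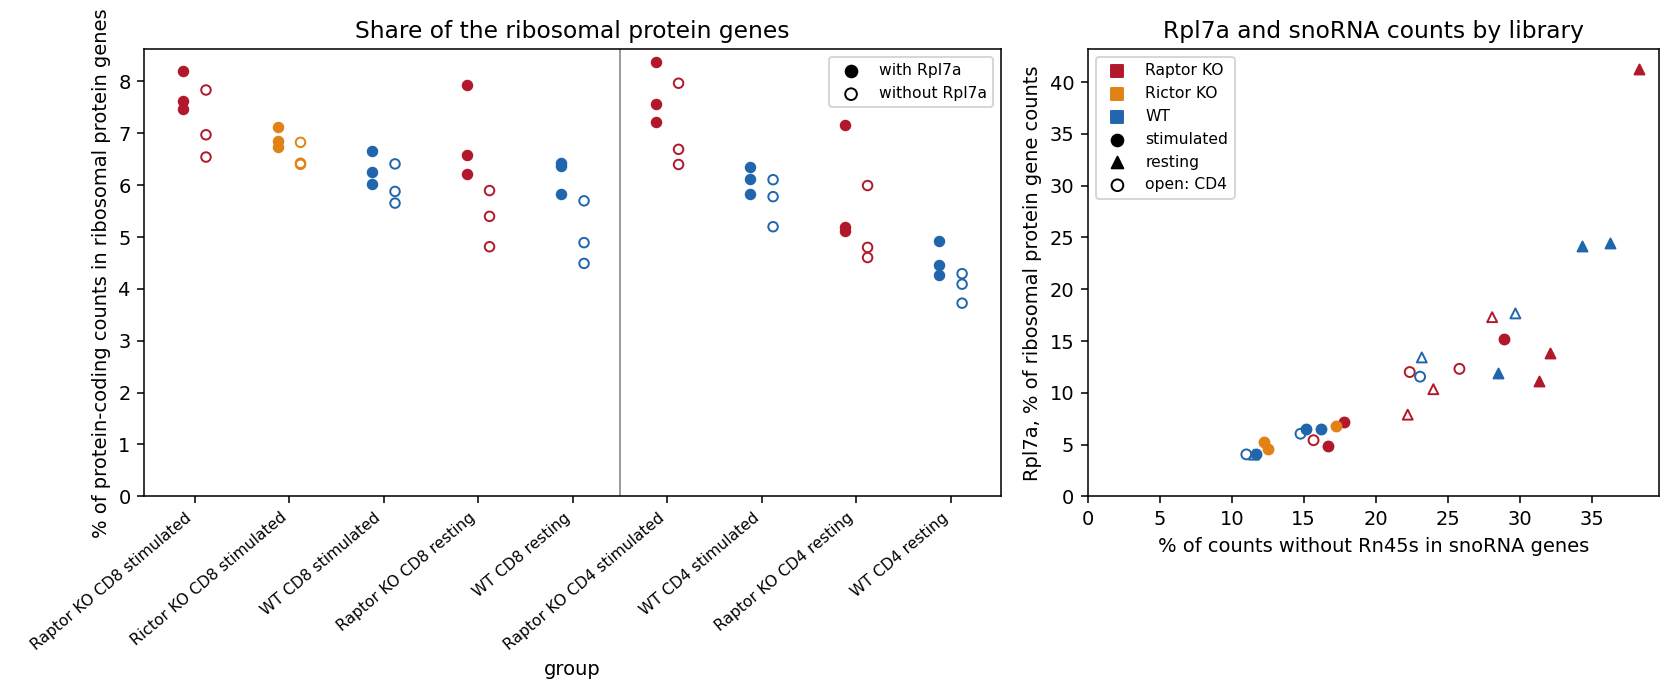
Left, the percent of protein-coding counts in ribosomal protein genes per library, with and without Rpl7a; right, Rpl7a as percent of the member counts against snoRNA genes as percent of the counts outside Rn45s. With Rpl7a included, the Raptor KO stimulated libraries lie above the WT stimulated ones on the left, and 1 Raptor KO resting CD8 library stands apart on the right, at 41.3% and 38.3%.

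The start sequences were set beside these effects. Of the members with a run of at least 5 C or T bases over the recorded start, 21 were tested, and 41 were tested that have an entry and a shorter run or none. With stimulation, 12 of the 21 rose in Raptor KO CD4 cells (median 0.51) and 11 in WT CD4 cells (0.39), against 26 (0.60) and 31 (0.77) of the 41. In CD8 cells 10 of the 21 rose in Raptor KO (0.54) and 9 in WT libraries (0.28), against 30 (0.76) and 20 (0.41) of the 41. Of all genes, 27.9% rose in Raptor KO CD4, 32.4% in WT CD4, 29.5% in Raptor KO CD8 and 32% in WT CD8 cells. Between Raptor KO and WT stimulated cells, 3 of the 21 were higher in CD4 (median 0.30) and 4 in CD8 cells (0.34), against 7 (0.26) and 4 (0.31) of the 41. Of all genes, 8.82% were higher in CD4 and 6.3% in CD8 cells. Both kinds are seen among the members with the clearest Raptor KO differences, since Rps15a has a run of 9 bases and Rps7 a run of 3. The split sorts members by the letters at the recorded start, which may not be the start the cells use. It cannot tell whether these effects depend on a TOP tract.

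Other genes of the same pathway gave a frame for the members. Of 22 other mRNAs known to start with a TOP tract, mainly translation factors, 18 rose and 1 fell with stimulation in Raptor KO CD4 cells (median log2 fold change 1.02), 17 rose and 1 fell in WT CD4 cells (1.03). In CD8 cells 19 rose in Raptor KO (1.11), and 16 rose and 1 fell in WT libraries (0.74). Between Raptor KO and WT stimulated cells 4 were higher and 2 lower in CD4 (median 0.11) and 4 higher in CD8 cells (0.23). Of all genes, 8.82% were higher and 8.56% lower in CD4 cells, and 6.3% were higher in CD8 cells. Eef1a1, which brings aminoacyl-tRNA to the ribosome, was higher, at 0.85 ± 0.18 (SE, adjusted p = 0.00106) in CD4 and 0.76 ± 0.18 (SE, adjusted p = 0.00437) in CD8 cells. Npm1, a nucleolar assembly factor, was lower in Raptor KO stimulated CD4 cells, at -0.78 ± 0.19 (SE, adjusted p = 0.00438). Of 6 tested chaperones that escort single ribosomal proteins, 3 rose in Raptor KO CD4, 4 in WT CD4, 4 in Raptor KO CD8 and 5 in WT CD8 cells with stimulation. In the same order, 27.9%, 32.4%, 29.5% and 32% of all genes rose. Heatr3, which accompanies Rpl5 to the nucleus, was lower in Raptor KO than in WT stimulated CD4 cells, at -0.80 ± 0.17 (SE, adjusted p = 0.000753).

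Regulators of TOP mRNAs and of cap-dependent translation were also measured. Of 7 tested, 4 were lower in Raptor KO than in WT stimulated CD4 cells (8.56% of all genes) and 1 in CD8 cells (5.42%). The largest of these differences was that of Eif4ebp1, the translation repressor 4E-BP1 that mTORC1 phosphorylates, at -2.73 ± 0.32 (SE, adjusted p = 5.39e-08) in CD4 and -2.71 ± 0.27 (SE, adjusted p = 9.69e-10) in CD8 cells. Larp1, which binds TOP tracts, was at -0.51 ± 0.17 (SE, adjusted p = 0.0404) in CD4 cells.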

How the data were processed

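Total RNA of the sorted cells was fragmented, a 3′ adaptor was ligated and the cDNA was amplified, per the labels' protocols, which name neither poly(A) selection nor rRNA depletion. The submitters' processing notes name STAR 2.6.0a and GRCm38; the program that counted reads, its annotation and use of strand were not given in the sources used here, so reads of overlapping, antisense or near-identical genes cannot be told apart. The deposited table holds raw counts per Ensembl gene for 27 libraries. Symbols and biotypes came from GENCODE vM21 (26765 of 26802 genes matched); sequences came from RefSeq tables on GRCm38.p6. The members and lists were chosen with earlier results of these data known.

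Rn45s was left out. Genes were kept by filterByExpr (minimum count 10, minimum total 15), TMM scaled and fitted with edgeR 4.0.16 in R 4.3.3 (robust quasi-likelihood, 1 mean per group, all 27 libraries); p-values were Benjamini-Hochberg adjusted over 10493 genes and called under 0.05. Common biological variation was 0.187. The procedure was tested on simulated data. Alternatives were DESeq2 1.42.0, other scalings, no low-count filter, the replicate number or the library code as a block, the compared groups alone, and each library left out. The named members were the 3 largest and 3 smallest changes past the threshold in each comparison and a fixed set chosen by role; up to 2 genes were named from each other list. Values of some single genes are not reported here. Member counts of 24223 to 108246 per library limit precision for the paralogs under about 10 CPM. The 204 pseudogenes of the same name pattern held 0.583% to 2.08% as many counts as the members. Replicates differed beyond sampling noise (chi-square per degree of freedom 2.68 to 49.2), so none was treated as a copy.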

Additional observations from a re-analysis of the deposited data

Results flagged for a closer look

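In 3 members the effect of stimulation differed between Raptor KO and WT cells by the interaction test (edgeR quasi-likelihood, adjusted over all genes). These were 1 of 82 in CD4 cells, against 3.57% of all genes higher and 2.25% lower, and 2 of 82 in CD8 cells, both higher, against 1.7%, so the shares were near or below those of all genes. In CD4 cells the log2 effect on Rps27l, Raptor KO minus WT, was -2.56 ± 0.48 (SE, adjusted p = 0.000735). In CD8 cells the effect was larger in Raptor KO than in WT cells by 0.83 ± 0.21 (SE, adjusted p = 0.0164) for Rps15a and by 0.79 ± 0.20 (SE, adjusted p = 0.0167) for Rps7. Both CD8 calls were lost without WT stimulated library 1 or Raptor KO stimulated library 3, and that of Rps7 also without Raptor KO resting library 3. Stimulated Raptor KO CD8 libraries had 331, 342 and 452 CPM of Rps15a against 203, 244 and 229 CPM in stimulated WT libraries.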

How the results depend on the processing

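Of 323 results for single named members, 97 passed the threshold, and 47 of these 97 kept their direction and call under every alternative run; 6 reversed. Library totals that include Rn45s reversed the medians in Raptor KO over WT stimulated CD4 (-0.24) and CD8 cells (-0.19), in CD8 over CD4 resting WT cells (-0.091) and in the CD8 difference of stimulation effects (-0.19), as well as Rps15a (0.17) and Rps7 (0.24) in WT CD8 stimulation and Rpsa (-0.052), Rpl3 (-0.0096), Rpl5 (-0.076) and Rpl36a (-0.0091) in Raptor KO over WT stimulated CD4 cells. With those totals 13 members passed for stimulation in Raptor KO CD4 cells, 1 for Raptor KO over WT in stimulated CD4 cells, and 0 in stimulated CD8 cells, in resting CD8 over CD4 cells and in the CD8 difference. Without a low-count filter 8 members passed for Raptor KO over WT in stimulated CD4 and 7 in stimulated CD8 cells, 2 in the CD4 difference and 0 in the CD8 difference. With the compared groups alone 8 passed for resting CD8 over CD4 cells and 0 in the CD8 difference. The cause was not tested.

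Leaving out 1 library at a time, 5 to 18 members passed for Raptor KO over WT in stimulated CD4 cells, 3 to 13 in stimulated CD8 cells, 0 to 1 in resting CD8 cells, 0 to 6 for resting CD8 over CD4 cells, 1 to 2 in the CD4 difference and 0 to 6 in the CD8 difference. The 4 stimulation counts ranged from 35 to 61. DESeq2 called 17 and 9 members for Raptor KO over WT in stimulated CD4 and CD8 cells.

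With the replicate number as a block, 20 members passed for Raptor KO over WT in stimulated CD8, 26 in stimulated CD4 and 1 in resting CD4 cells, 9 for resting CD8 over CD4 cells, 3 in the CD4 difference and 4 in the CD8 difference. Pairing by number was judged by the correlation of same-numbered deviations, which was over 0.1 for every pair in 0 of 11 comparisons (range -0.18 to 0.37). In 2 of the 11 every library correlated best with its own number, as did 20 of 33 libraries over the 11. This rule does not show that the libraries are unpaired, and the main fit used no block. With the library code as a block, added after seeing the data except for Rictor KO, Raptor KO over WT gave 23 members among stimulated CD8 libraries, 1 among resting CD8 and 2 among resting CD4 libraries, with 10 for resting CD8 over CD4 cells, 3 in the CD4 difference and 4 in the CD8 difference. The shares of all genes passing under these block fits are not given here, so the counts cannot be read as a result about the members. Low counts limit the 3 untested members and Rps19bp1, Rpl36al and Rps27rt. Why Rpl24 had so few counts beside the other large subunit genes was not tested.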
